A study of Mus musculus with 8 samples.

Results

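Fc receptors bind the constant part of antibodies and so link antibody to the cells that carry them. The receptors examined here were 9 genes, 5 known for their expression in B cells (Fcgr2b, Fcer2a, Fcrla, Fcrl1 and Fcmr) and 4 known for their expression in myeloid cells (Fcgr1, Fcgr3, Fcgr4 and Fcer1g), out of 54532 genes counted. They were chosen by name, and each was found under 1 Ensembl identifier. RNA of bone marrow B cells was sequenced in 3 libraries from sham-operated mice (Sham) and 3 from ovariectomized mice (OVX), a surgical model of estrogen deficiency. The sequenced cells were taken out of marrow with magnetic beads. The labels of these libraries give no genotype, strain, age or time after surgery and do not say whether each library came from a single mouse, so that p-values measure only the spread between these libraries, which may be technical.

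Activating Fc receptors signal through a partner with an immunoreceptor tyrosine-based activation motif (ITAM), the common gamma chain encoded by Fcer1g. The inhibitory receptor FcγRIIB, encoded by Fcgr2b, carries an inhibitory motif (ITIM) in its own tail and dampens signals of the B cell receptor when both are bound by the same immune complex. In marrow, Fcer2a (CD23, the low-affinity IgE receptor), Fcmr (the IgM receptor) and Fcrl1 mark later B cell stages, whereas Fcgr1, Fcgr3 and Fcgr4 are IgG receptors of macrophages, monocytes and neutrophils.

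Between 23838775 and 33136701 reads were counted per library. Of the 12 general B cell markers, all were tested, Cd79a and Pax5 among them, and their summed level was between 12250 and 13570 CPM in Sham and between 12900 and 14570 in OVX. CPM is the number of reads of a gene per 1000000 reads of its library, after adjustment of the library total by edgeR's TMM factor. Genes of other cells were also counted. Neutrophil, monocyte and macrophage markers had summed levels that differed between the highest and the lowest library 8.34-fold, 5.86-fold and 4.03-fold. All 16 neutrophil markers were highest in Sham replicate 3, and 8 of 10 macrophage markers were highest in Sham replicate 2. No transcript lengths were at hand, so that a level is compared between libraries and not between genes.

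All 9 genes passed the filter on low counts. A gene was called when edgeR's quasi-likelihood test gave an adjusted p-value under 0.05 with a difference of 1.6-fold or more. None of the 9 was called higher or lower in OVX, as for the 15305 genes tested, of which 0% were called higher and 0% lower. The unadjusted p-value was under 0.05 for 0 of the 9 genes, against 3.75% of all genes tested (1.47% higher and 2.28% lower in OVX). For none of the 9 did the OVX libraries lie wholly above or below the Sham libraries, whereas they did for 8.44% of all genes (4.33% above and 4.12% below). Of the 9 genes, 8 had their highest level in Sham replicate 2, the library in which 25.7% of all genes tested were highest. Fcrla was the exception, with its lowest level there.

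**Figure D1:**
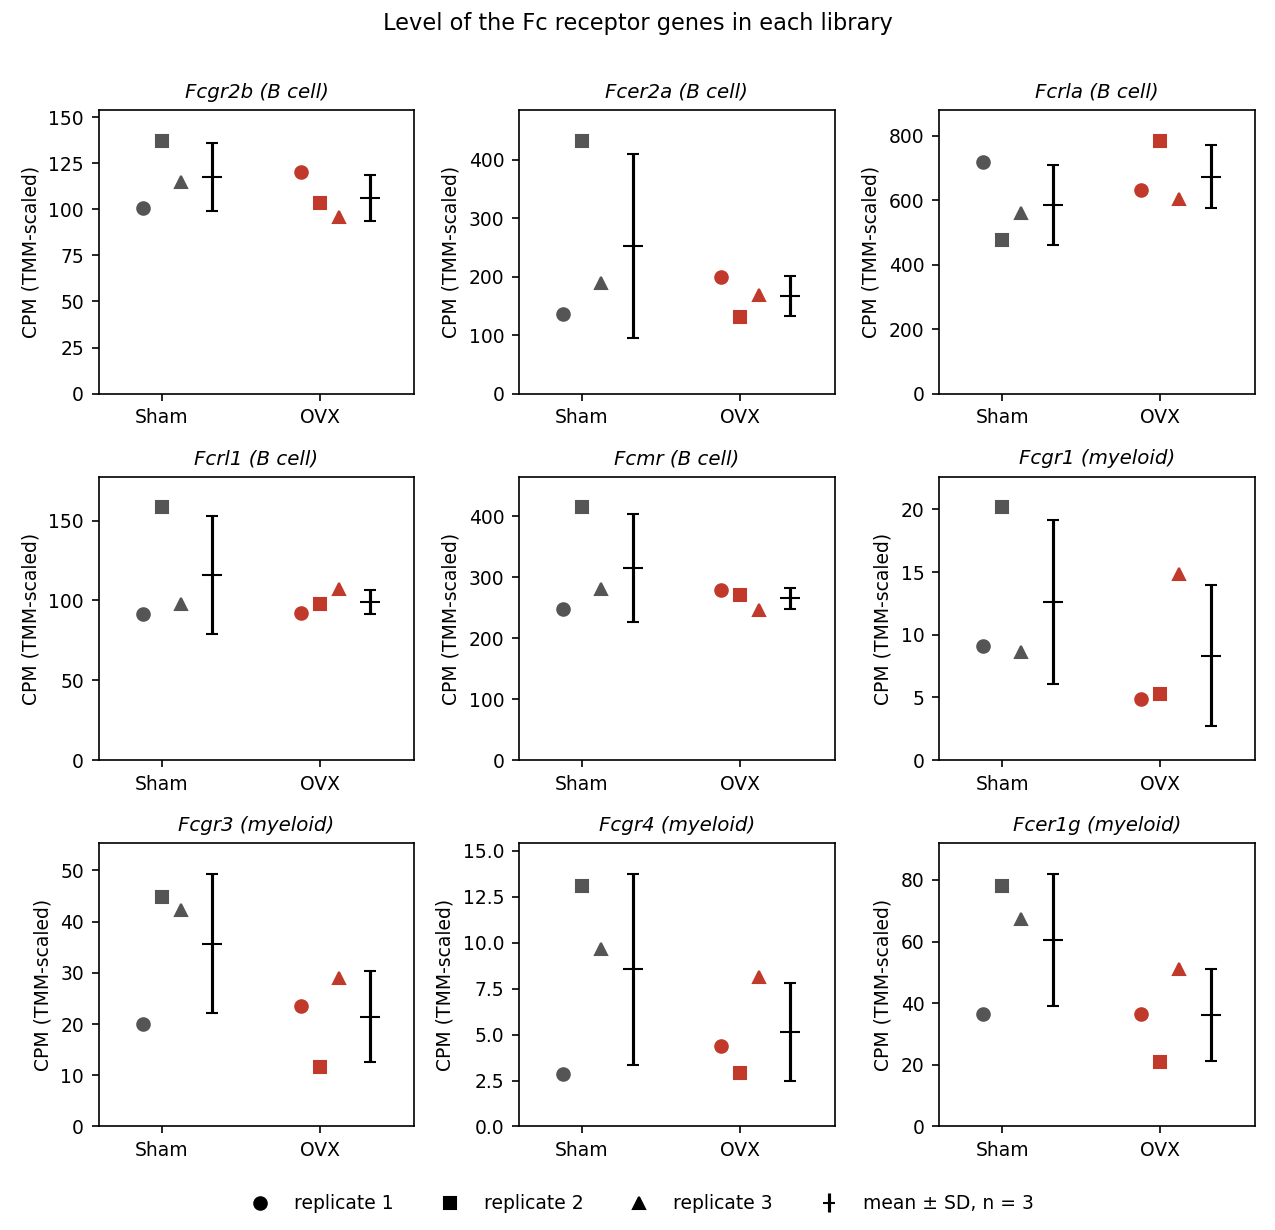
Level of each Fc receptor gene in CPM (vertical axes start at 0), with 1 point per library, circles, squares and triangles for replicates 1, 2 and 3, and the mean ± SD of 3 libraries beside each group. The square of Sham replicate 2 stands highest in every panel but that of Fcrla, and the groups overlap in all 9 panels.

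Among the B cell genes, Fcer2a varied most between libraries. In the order of replicates 1 to 3, its level was 136, 433 and 189 CPM in the Sham libraries and 199.8, 131 and 169.5 CPM in the OVX libraries. Sham replicate 2 thus stood 2.17-fold above the next library, OVX replicate 1, and the other 5 libraries overlapped. Sham averaged 253 ± 158 CPM and OVX 167 ± 34.6 (SD, n = 3 each). Relative to Sham, OVX had a log2 fold change of -0.60 with a 95% interval from -1.55 to 0.35 (adjusted p = 0.811 in edgeR's quasi-likelihood test, and p = 0.6 in a two-sided exact permutation test, where 3 libraries against 3 allow no p below 0.1). Without Sham replicate 2 the log2 fold change was 0.0335. In these bulk samples fewer cells of a type and less RNA per cell cannot be told apart.

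Fcmr and Fcrl1 had the same outline with smaller differences. The level of Fcmr was 247, 414 and 281 CPM in the Sham libraries and 279, 271 and 245.5 CPM in the OVX libraries, in the order of replicates 1, 2 and 3. That of Fcrl1, a receptor-like protein of the B cell surface, was 91.6, 158 and 97.97 CPM in Sham and 92.05, 97.8 and 107 CPM in OVX. For both genes Sham replicate 2 was the high library, 1.48-fold above the next, and the remaining libraries of the groups overlapped. Fcmr averaged 314 ± 88.4 CPM in Sham against 265 ± 17.4 in OVX, and Fcrl1 116 ± 36.9 against 98.96 ± 7.55 (SD, n = 3 each). The log2 fold changes were -0.25 (95% interval from -0.675 to 0.19) for Fcmr and -0.23 (from -0.70 to 0.25) for Fcrl1, and without Sham replicate 2 they were 0.0030 and 0.0602. The reads of Fcrl1 per read of Fcmr stayed between 0.330 and 0.436 in the 6 libraries.

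Fcgr2b was the steadiest of the 9 genes. Replicates 1 to 3 of Sham had 100.5, 137 and 115 CPM, and those of OVX had 120.0, 103 and 95.8 CPM. The highest library exceeded the lowest 1.43-fold, and OVX replicate 1 lay above Sham replicates 1 and 3. Sham averaged 117 ± 18.5 CPM and OVX 106 ± 12.4 (SD, n = 3 each). Its log2 fold change was -0.14, and the 95% interval from -0.45 to 0.17 did not include a change of 1.6-fold in either direction, which is 0.678 on the log2 scale. The intervals of Fcrla, from -0.19 to 0.60, and of Fcmr, from -0.675 to 0.19, also lay within these bounds, that of Fcmr only just.

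Fcrla encodes an Fc receptor-like protein that stays inside the B cell. Replicates 1 to 3 of Sham had 719, 476 and 561 CPM, and those of OVX had 630.2, 784 and 604 CPM. Sham replicate 2, the highest library of the other 4 B cell genes, was the lowest for Fcrla, and OVX replicate 2 was the highest. With 585 ± 123 CPM in Sham against 673 ± 97.5 in OVX (SD, n = 3 each), the log2 fold change was 0.20, or 0.0688 without Sham replicate 2. The reads of Fcmr per read of Fcrla were 0.871 in Sham replicate 2 and between 0.344 and 0.500 in the other 5 libraries, and those of Fcer2a per read of Fcrla ran from 0.167 in OVX replicate 2 to 0.910 in Sham replicate 2.

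The markers of B cell stages differed between the same libraries. The 12 mature B cell markers had a summed level of 8144 CPM in Sham replicate 2 and between 4494 and 5370 CPM in the other libraries, and 8 of them were highest in Sham replicate 2. The 14 pro-B and pre-B markers, Rag1 and Vpreb3 among them, had their lowest sum of 2820 CPM in Sham replicate 2 and their highest, 5449 CPM, in OVX replicate 2, the same extremes as Fcrla. None of the genes of either list was at 0 in a library. Their part in the levels of the Fc receptor genes was not tested. Reads of Fcer2a per read of Cr2, a complement receptor of mature B cells, lay between 1.99 and 2.68 in all 6 libraries, a 1.35-fold range beside the 3.31-fold range of Fcer2a itself.

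**Figure D2:**
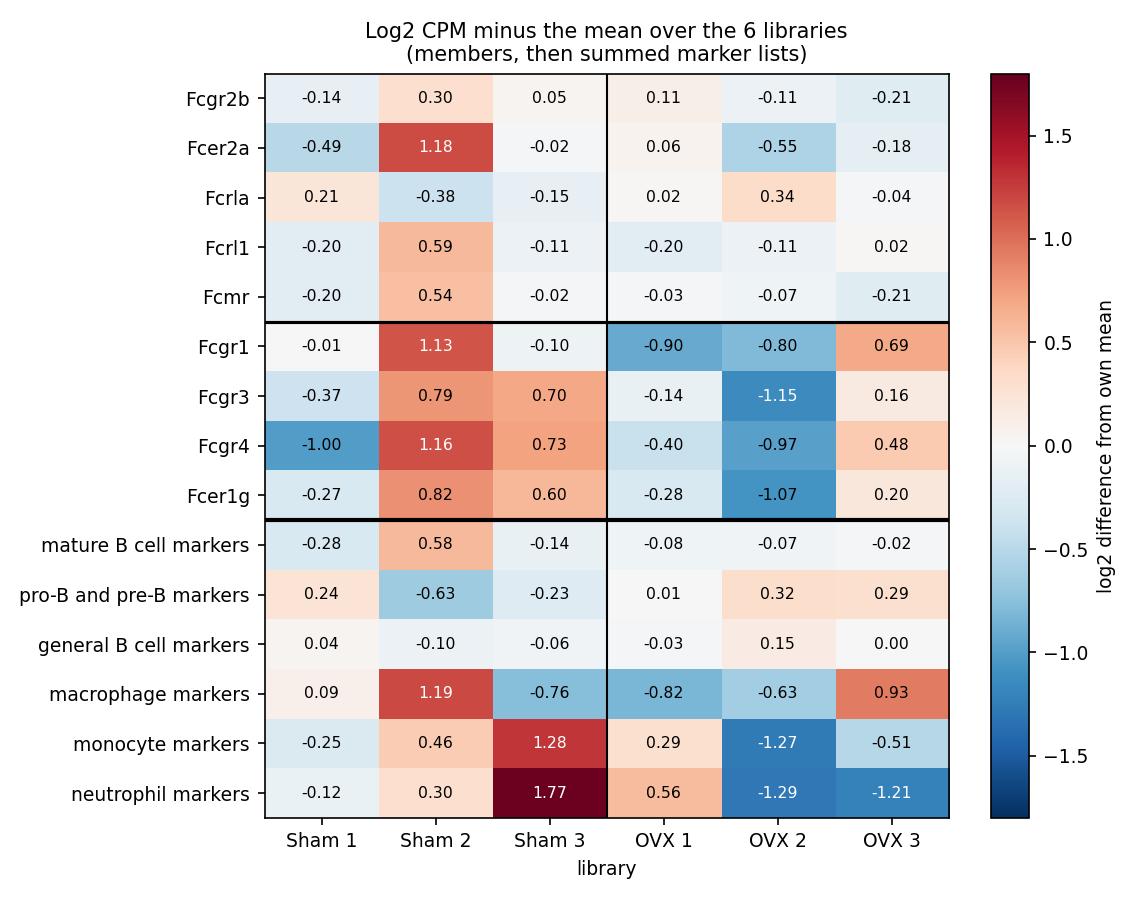
Log2 level of each gene in the 6 libraries minus its own mean, with a prior count of 2 for the 9 genes and from summed CPM for 6 marker lists, red above and blue below the mean. Fcer2a, Fcrl1 and Fcmr share the red column of Sham replicate 2 with the mature B cell markers, Fcrla and the pro-B and pre-B markers are blue there, and Fcgr1 shares with the macrophage markers its high values in Sham replicate 2 and OVX replicate 3.

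From the lowest to the highest library the myeloid genes varied more than the 5 B cell genes, between 3.71-fold and 4.57-fold. The SD over all libraries was nevertheless larger for Fcer2a (53.8% of the mean) than for Fcgr3 (45.3%) and Fcer1g (43.96%). All 4 myeloid genes had lower mean levels in OVX with the groups overlapping. Fcer1g, the shared gamma chain, had 36.6, 77.95 and 67.15 CPM in replicates 1 to 3 of Sham and 36.5, 21.0 and 50.9 CPM in those of OVX. Sham replicates 2 and 3 exceeded every OVX library, while Sham replicate 1 lay between OVX replicates 1 and 3. Sham averaged 60.6 ± 21.4 CPM and OVX 36.15 ± 14.9 (SD, n = 3 each), and the 95% interval of the log2 fold change of -0.74 ran from -1.601 to 0.11. The adjusted p was 0.811 in edgeR's quasi-likelihood test and the exact two-sided permutation test gave p = 0.2. The log2 fold change was -0.47 without OVX replicate 2.

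Fcgr3, the low-affinity activating receptor CD16, followed Fcer1g closely. It had 20.05, 44.9 and 42.2 CPM in the Sham libraries and 23.6, 11.65 and 29.0 CPM in the OVX libraries, in the order of replicates 1, 2 and 3. Again Sham replicates 2 and 3 were above every OVX library and Sham replicate 1 was not. The log2 fold change was -0.74 (95% interval from -1.66 to 0.19), with 35.7 ± 13.6 CPM in Sham against 21.4 ± 8.87 in OVX (SD, n = 3 each). Without OVX replicate 2 it was -0.44. For each read of Fcgr3 there were between 1.55 and 1.83 reads of Fcer1g in the 6 libraries, 1.72 ± 0.119 in Sham and 1.70 ± 0.137 in OVX (SD, n = 3 each), although each gene alone differed more than 3.7-fold between libraries. Of the 15304 other genes tested, Fcer1g was the 4th closest to Fcgr3 in its pattern over the libraries.

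Fcgr1, the high-affinity IgG receptor CD64, had a different outline. Replicates 1 to 3 of Sham had 9.12, 20.2 and 8.61 CPM, and those of OVX had 4.89, 5.26 and 14.9 CPM. The high libraries were Sham replicate 2 and OVX replicate 3, so that each group held 1 of them. Sham averaged 12.6 ± 6.54 CPM and OVX 8.34 ± 5.66 (SD, n = 3 each). Its log2 fold change of -0.60 (95% interval from -1.81 to 0.61) was -0.0844 without Sham replicate 2 and -1.32 without OVX replicate 3.

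Fcgr4, an activating IgG receptor that also pairs with the gamma chain, was the least covered of the 9 genes, with between 68 and 372 reads in a library. Its level was 2.87, 13.1 and 9.66 CPM in the Sham libraries and 4.40, 2.93 and 8.11 CPM in the OVX libraries, in the order of replicates 1, 2 and 3. The lowest and the highest level were both found in Sham. The log2 fold change was -0.73 (95% interval from -2.07 to 0.61), with 8.54 ± 5.21 CPM in Sham against 5.15 ± 2.67 in OVX (SD, n = 3 each), and it was -0.28 without Sham replicate 2. Leaving out OVX replicate 3 gave -1.22.

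The balance among the IgG receptors separated the libraries across the groups. Reads of Fcgr3 per read of Fcgr1 were 4.90 in Sham replicate 3 and 4.83 in OVX replicate 1, and between 1.95 and 2.22 in the other 4 libraries. Each group thus held 1 library of the higher ratio. In Sham replicate 3 and OVX replicate 1 the neutrophil markers had their highest sums, 9532 and 4133 CPM, against between 1143 and 3437 CPM elsewhere, and the monocyte markers had 1592 and 800.0 CPM, although Sham replicate 2 reached 899 CPM. Macrophage markers had their lowest sums there, 599 and 575 CPM, against between 658 and 2316 CPM in the other libraries. The macrophage sums were 2316 CPM in Sham replicate 2 and 1940 CPM in OVX replicate 3, the same libraries in which Fcgr1 was highest, and Fcgr1 had between 0.0790 and 0.133 reads per read of C1qa. No gene of the neutrophil, monocyte or macrophage lists was at 0 in a library, and the part of these cells in the levels of the 4 genes was not tested. Like the 4 Fc receptor genes, all 16 neutrophil, 8 monocyte and 10 macrophage markers had log2 fold changes below 0, with medians of -1.26, -1.25 and -0.34, and none was called. The medians were also below 0 for the markers of T and NK cells (-0.99), of plasmacytoid (-1.19) and conventional (-0.70) dendritic cells and of erythroid cells (-1.14). The megakaryocyte markers went the other way, with a median of 0.64 and all 4 tested genes above 0, and none was called.

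**Figure D3:**
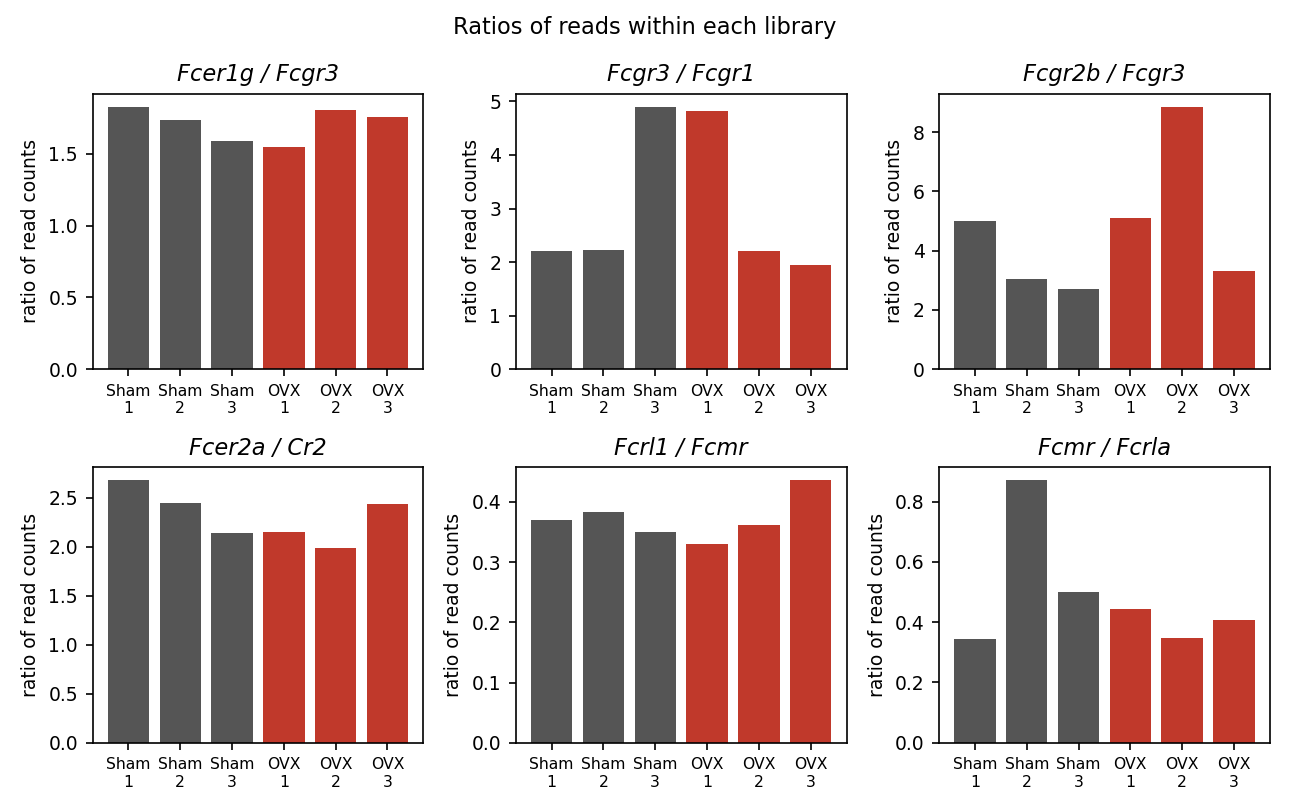
Ratio of the read counts of 2 genes within each library, which no scaling of whole libraries can alter, grey for Sham and red for OVX, with vertical axes from 0. Fcer1g per Fcgr3 is nearly level, Fcgr3 per Fcgr1 is high in Sham replicate 3 and OVX replicate 1, and Fcmr per Fcrla is highest in Sham replicate 2.

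Fcgr2b is carried by myeloid cells as well as by B cells. Its reads per read of Fcgr3 were 5.01, 3.06 and 2.71 in replicates 1 to 3 of Sham and 5.09, 8.86 and 3.31 in those of OVX, so that the ratio was highest in OVX replicate 2, where the myeloid genes were low, and the groups overlapped. The extracellular parts of the proteins of both genes are alike in sequence, so their counts are uncertain to the extent that reads fit both genes.

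In the RefSeq annotation of GRCm38.p6, the assembly that the submitters' build name mm10 also stands for, 5 of the 9 genes lie within 316.8 kb of chromosome 1. From the left these are Fcrla (170917594 to 170932216), Fcgr2b (170960558 to 170976071), Fcgr4 (171018926 to 171029761), Fcgr3 (171051169 to 171065915) and Fcer1g (171229572 to 171234349), of which only Fcgr4 is on the plus strand. Fcmr lies further left on chromosome 1 (130865777 to 130880790), Fcrl1 (87376353 to 87403967) and Fcgr1 (96282909 to 96293969) on chromosome 3, and Fcer2a (3680280 to 3694174) on chromosome 8. Neighbours in the cluster ranged from unlike to alike in their pattern over the libraries. Fcrla and Fcgr2b, 28.3 kb apart, had their lowest and their highest level in the same library, Sham replicate 2. Fcgr4 and Fcgr3, 21.4 kb apart, were both highest there, and Fcgr3 was the 41st closest in pattern to Fcgr4 of 15304 genes. Fcgr3 and Fcer1g, the closest in pattern of the 9 genes, are 163.7 kb apart. In the annotation other genes overlap Fcrla (Gm2962), Fcrl1 (Gm31940), Fcer2a (Trappc5), Fcgr4 (Gm26110) and Fcgr3 (the microRNA gene Mir6546 and transfer RNA genes). Reads of overlapping genes cannot be told apart here without the strand setting of the count.

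The promoters of the 3 myeloid IgG receptors are shown because PU.1, a transcription factor of myeloid and B cells, is known to bind purine-rich sites of this kind in myeloid promoters. The 100 bases before a RefSeq start are given on the gene's strand, followed by those of Fcgr2b, which held no match. For Fcgr3 only 30 bases are given, and these lie inside the annotated gene, which extends further upstream. Capitals mark the letters GAGGAAG on either strand, which read CTTCCTC where they lie on the other strand. Not shown are the myeloid gene Fcer1g, without a match in the wider windows described next, and the B cell gene Fcrl1, with 2.
Fcgr1, minus strand, chr3:96293970-96294069: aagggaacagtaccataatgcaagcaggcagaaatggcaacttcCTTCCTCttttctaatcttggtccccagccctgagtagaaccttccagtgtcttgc
Fcgr3, minus strand, chr1:171059404-171059433: ggttaagcaagagagtccatttcCTTCCTC
Fcgr4, plus strand, chr1:171018826-171018925: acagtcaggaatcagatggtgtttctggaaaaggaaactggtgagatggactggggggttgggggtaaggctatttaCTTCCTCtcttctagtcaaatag
Fcgr2b, minus strand, chr1:170976072-170976171: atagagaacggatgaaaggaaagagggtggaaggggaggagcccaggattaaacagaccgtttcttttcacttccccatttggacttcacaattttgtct

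The 9 genes had 12 windows from 250 bases before to 50 after a start, as some genes have more than 1 start. GAGGAAG was found in 4 of the 9 genes, Fcgr1, Fcgr3, Fcgr4 and, with 2 matches, Fcrl1. Counted by window, these were 5 of 12, against 13.6% of all 32851 RefSeq windows of the same length. The 2 windows of Fcgr3 overlap and hold the same match, which is thus counted in both. The core letters of a HIF-1 site, ACGTG or GCGTG on either strand, which can overlap each other, were found for 3 of the 9 genes, Fcgr3, Fcer1g and Fcmr. These were 4 of the 12 windows, against 43.8% of all windows, with the same match of Fcgr3 again counted in both of its windows. The octamer ATTTGCAT of B cell promoters was found for 0 of the 9 genes and in 1.74% of all windows. A match describes these letters only.

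Of the other Fc receptor genes, 9 of 11 passed the filter on low counts, and none was called. The log2 fold change was above 0 in 2 and below 0 in 7, against 51.8% of all genes below 0. Fcrl5, a receptor-like gene of mature B cell subsets, had a log2 fold change of -0.83 (95% interval from -1.73 to 0.06), with 5.28, 14.7 and 10.6 CPM in replicates 1 to 3 of Sham and 7.62, 5.01 and 4.57 CPM in those of OVX. Fcrl6 and Fcrlb, with 0.46 and 0.22, were the 2 above 0. Fcamr (-0.29) and Pigr (-0.76), which bind IgM and IgA, were highest in Sham replicate 2. Fcgrt, the neonatal receptor that keeps IgG from being degraded, had 66.9 CPM in Sham replicate 2 and 39.1 in OVX replicate 3 and between 17.8 and 23.2 CPM elsewhere. Its log2 fold change of -0.52 was 0.24 without Sham replicate 2. Without the same library that of Fcamr was 0.14, that of Fcrl5 -0.47 and that of Pigr -0.41. Trim21, the antibody receptor of the cytosol, differed least, with -0.0415 (from -0.28 to 0.20).

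The chains of the high-affinity IgE receptor of basophils and mast cells were highest in Sham replicate 3. Ms4a2, its beta chain, had 35, 47 and 104 reads in the Sham libraries and 45, 7 and 17 in the OVX libraries, and Fcer1a, its alpha chain, had 5, 27 and 39 reads and 17, 11 and 7. Their log2 fold changes were -1.52 (95% interval from -3.25 to 0.22) and -1.11 (from -2.81 to 0.59). Without Sham replicate 3 they were -0.89 and -0.49, and without OVX replicate 1 that of Ms4a2 was -2.65. The markers of basophils, mast cells and eosinophils were highest in the same library for 9 of 10 genes, with a summed level from 56.9 to 186 CPM in Sham and from 24.5 to 93.4 CPM in OVX, and their part was not tested. Fcrls had at most 5 reads in a library, and Fcgbp had 0 reads in all 6, for which 3 counts in a library are the limit that a count of 0 allows.

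**Figure D4:**
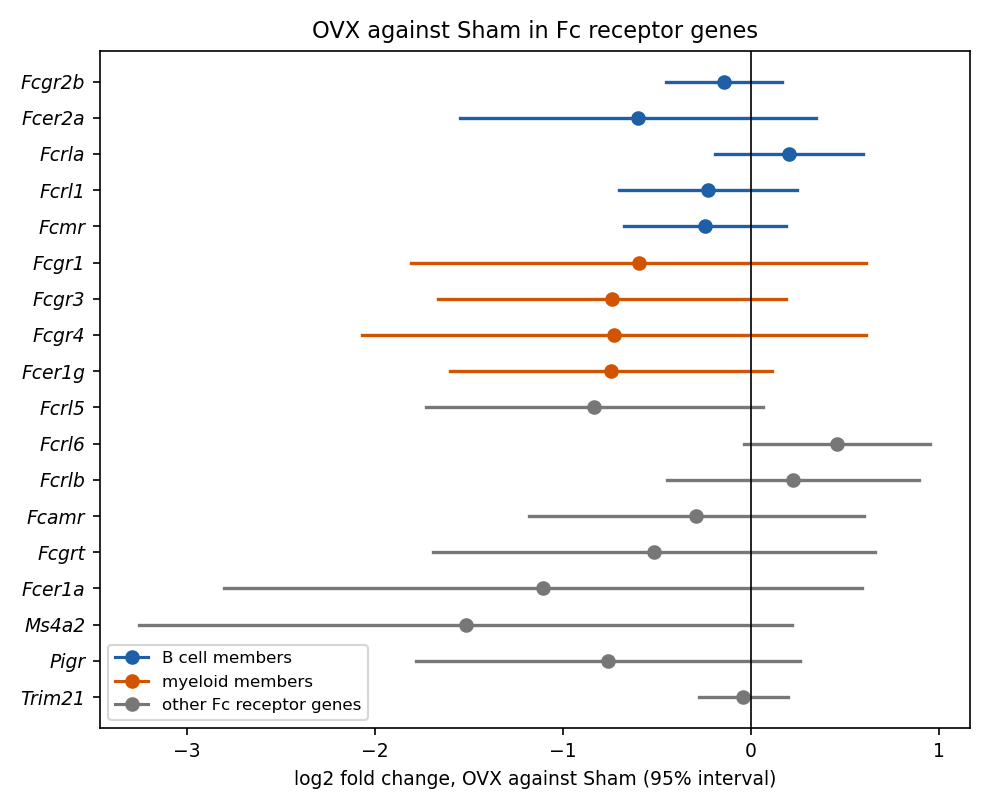
Log2 fold change of OVX against Sham (points) with its 95% interval from edgeR's quasi-likelihood fit (lines), blue for the B cell genes, orange for the myeloid genes and grey for the other Fc receptor genes tested. Every interval includes 0, the 4 myeloid points lie between -0.74 and -0.60, and the intervals of Fcgr2b, Fcrla and Trim21 are among the shortest.

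The signalling partners were examined as lists. Of 21 genes of the activating ITAM pathway, all tested, 0 were called, 12 had a log2 fold change above 0 and 9 below, and the median was 0.0151 beside -0.0081 over all genes tested. At an unadjusted p-value under 0.05 there was 1, Plcg1 (a phospholipase, 0.24, standard error 0.0895). The next 2 by p-value were Fgr (-0.85, standard error 0.36), a Src-family kinase of myeloid cells, and Tyrobp (-0.66, standard error 0.28), the adaptor DAP12. Tyrobp had 44.2, 65.4 and 90.5 CPM in replicates 1 to 3 of Sham and 44.6, 30.2 and 52.2 CPM in those of OVX, thus highest in Sham replicate 3 where Fcer1g was second highest. The kinases Syk (0.16) and Lyn (0.18) and the lipid kinase subunit Pik3cd (-0.0432) had the most reads of the list, and their levels differed at most 1.34-fold between libraries.

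Of 16 genes of the inhibitory ITIM pathway, all tested, 0 were called and 0 had an unadjusted p-value under 0.05, with 8 above 0, 8 below and a median log2 fold change of -0.0068. Pirb (-0.57, standard error 0.26) and Lair1 (-0.69, standard error 0.37), both inhibitory receptors, had the lowest p-values, followed by Dok3 (0.16, standard error 0.0967), an adaptor. Inpp5d, the phosphatase SHIP-1 that acts downstream of FcγRIIB, was not among these but is named for that role, after its values were seen, and had a log2 fold change of 0.0594 (95% interval from -0.0896 to 0.21) with 1.08-fold between the highest and the lowest library. Siglecg (0.0383), Csk (0.10) and Dok3 had the most reads.

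The antibody classes that these receptors bind were counted as heavy chain constant genes, of which 7 of 8 were tested and none was called. Ighm, the class bound by the product of Fcmr, had a log2 fold change of 0.0823 and Ighd one of -0.31, while those of Igha, Ighg1, Ighg2b, Ighg2c and Ighg3 ran from -2.15 to -1.13, with Ighg1 and Ighg2c at an unadjusted p-value under 0.05. These genes are similar in sequence, and 6 of the 7 were highest in Sham replicate 2. Without that library the log2 fold change of Ighg2b was -0.56 in place of -1.28, and that of Ighg3 -0.67 in place of -1.13. That of Ighd was 0.23 in place of -0.31. Ighg1, Ighg2c and Igha stayed further below 0 without Sham replicate 2, at -1.495, -1.3985 and -1.2058. For Ighg1 every OVX library (at most 16.98 CPM) lay below every Sham library (at least 19.04 CPM), as for 4.12% of all genes tested. The groups overlapped for the other tested constant genes. Of 7 plasma cell markers 4 were below 0 and 3 above, with a median of -0.19 and none called. Jchain (-1.55), the joining chain of IgA and IgM, Prdm1 (-0.93) and Tnfrsf17 (-1.33) were also highest in Sham replicate 2. Prdm1 and Tnfrsf17 had an unadjusted p-value under 0.05, against 2.28% of all genes lower in OVX at that p-value. Xbp1 (-0.19) was highest in Sham replicate 3. Sdc1 (0.28), Irf4 (0.20) and Mzb1 (0.0555) were above 0, and Sdc1 and Irf4 were lowest in Sham replicate 2. The part of plasma cells in the antibody genes was not tested. These markers were named after their values were seen.

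The genes closest in pattern were sought for each of the 9 genes among 15296 others, by the root mean square difference of log2 levels centred on their mean over the 6 libraries. Within a library all genes share its depth and its mixture of cells, both of which differed between libraries. Fcrl1 was closest to Cd22, an inhibitory receptor of B cells (0.0288), then Slc10a3 and Crebl2. For Fcmr they were Tec, Neurl3 and Ccdc116 (0.0303 to 0.0434), for Fcer2a Pgap1, Meis3 and March1 (0.0431 to 0.0604), for Fcgr2b Cdk10, Rin3 and AW549877 (0.0271 to 0.0320), and for Fcrla Tmsb10, Chml and Ets2 (0.0360 to 0.0497). Fcgr2b differed little between libraries, so that 1663 genes lay within 0.15 of it, against 33 for Fcer2a. Among the myeloid genes, Fcer1g was closest to Actn1, Mpeg1 and Fyb (0.0585 to 0.0895), Fcgr3 to App, Plbd1 and Gm36161 (0.0697 to 0.0831), Fcgr1 to Clec4a1, Paqr9 and Gm15445 (0.11 to 0.14), and Fcgr4 to Rab7b, BC037032 and Ccn6 (0.20 to 0.21).

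The median log2 fold change was -0.23 over the 5 B cell genes and -0.73 over the 4 myeloid genes, beside -0.0081 over all genes tested, and the difference between both medians was not tested. A log2 fold change at or below that of Fcgr1 was found in 7.91% of all genes. Without Sham replicate 2 the median of the B cell genes was 0.0335. That of the myeloid genes moved with several libraries, to -0.40 and -0.44 without Sham replicate 2 or OVX replicate 2 and to -1.02 and -1.15 without Sham replicate 1 or OVX replicate 3. Leaving out Sham replicate 1 gave 6 of the 9 genes an unadjusted p-value under 0.05 (Fcer2a, Fcrla, Fcmr, Fcgr3, Fcgr4 and Fcer1g), in a fit where 2698 of 16051 genes had one, and again none was called. Fcgr1 and Fcer1g had such a p-value without OVX replicate 3, in a fit where 411 of 15678 genes had one. Fcgr3 and Fcer1g had one when no filter on low counts was used, as did 1269 of 27416 genes.

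**Figure D5:**
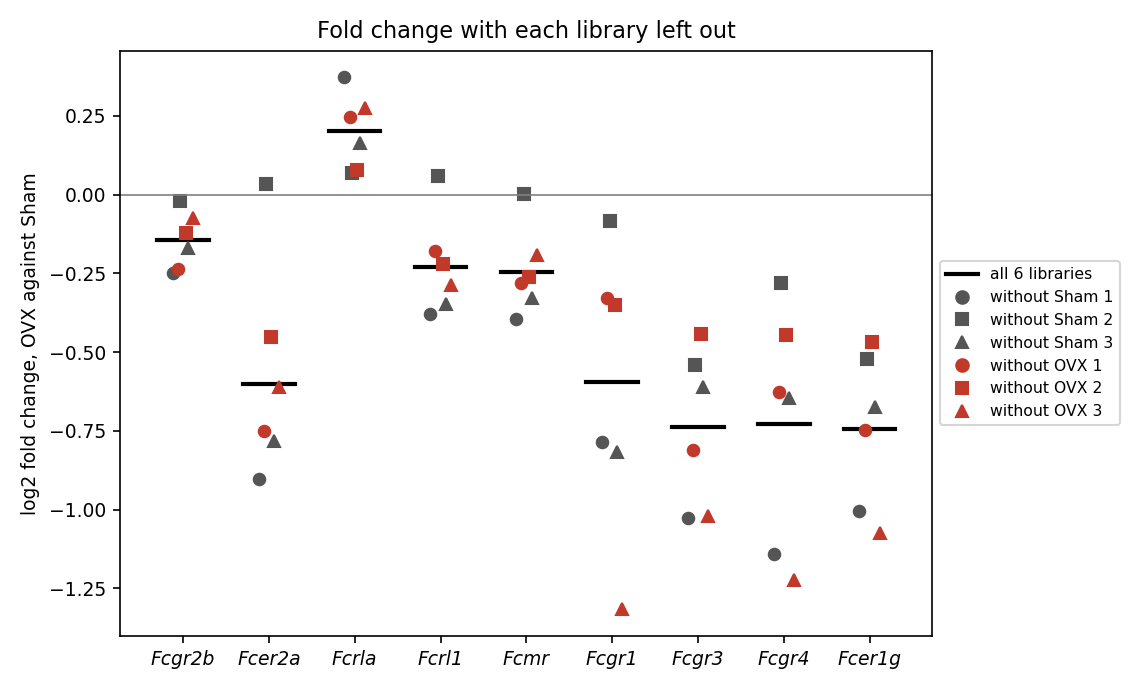
Log2 fold change of OVX against Sham for each gene with all 6 libraries (black bars) and with 1 library left out (grey for a Sham library, red for an OVX library, circle, square and triangle for replicates 1, 2 and 3). Without Sham replicate 2 the values of Fcer2a, Fcrl1 and Fcmr lie at or just above 0, and those of the 4 myeloid genes stay below 0 in all 6 fits.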

How the data were processed

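The authors deposited 1 raw, unnormalized count per Ensembl gene and library for 6 RNA-seq libraries. The submitters' processing notes name CASAVA, Bowtie 0.12.2 and the build mm10, and the counting tool, annotation and strand setting are not given in the sources used here. The ChIP-seq samples were not analysed here. Symbols were found for 54409 of 54532 identifiers.

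Tests used edgeR 4.0.16 in R 4.3.3 (filterByExpr by group, TMM factors, quasi-likelihood test, Benjamini-Hochberg adjustment over 15305 genes). Exact permutation tests used log2 CPM with a prior count of 2. Standard errors were taken from the log2 fold change and its F statistic, and intervals from the t distribution. Scripts were tested on simulated data. DESeq2 1.42.0, limma-voom (limma 3.58.1), other scalings and filters, a replicate block and fits leaving out each library were alternatives.

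The Fc receptor genes and all lists were chosen with earlier results of these data known, and read ratios and motif letters after values were seen. Named are the Fc receptor genes, the 3 genes with the lowest p-values and the 3 with the most reads of each pathway list, and the 3 closest in pattern. Within groups every pair of libraries differed beyond sampling noise (chi-square per degree of freedom from 15.0 to 52.5). Libraries of the same replicate number had correlations of deviations of -0.41, -0.189 and -0.279. These values gave no sign of pairing by number, which 3 libraries per group cannot exclude. Limits on counts of 0 cover counting error only.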

Additional observations from a re-analysis of the deposited data

How the results depend on the processing

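All 15 refits called 0 genes higher, 0 lower and 0 of the 9 Fc receptor genes. These were DESeq2, limma-voom, 4 other scalings (RLE, library size, upper quartile, general B cell markers), 2 other filters, the replicate block and 6 fits without 1 library, and dropping the fold threshold also gave 0 calls. The lowest adjusted p-value of the 9 genes was 0.273, for Fcgr3 without Sham replicate 1. The median log2 fold change of the B cell genes (-0.23) ran from -0.32 to -0.19 with all libraries kept and from -0.38 to 0.0335 when 1 was left out, and that of the myeloid genes (-0.73) from -0.82 to -0.70 and from -1.15 to -0.40. Among 135 values of the 9 genes, 3 reversed, all without Sham replicate 2. These were Fcer2a (0.0335, leave-one-out range from -0.90 to 0.0335), Fcrl1 (0.0602, from -0.38) and Fcmr (0.0030, from -0.39), and the cause was not tested. Scaling on the B cell markers moved the median of all genes from -0.0081 to -0.0876 and the genes at an unadjusted p-value under 0.05 from 225 higher and 349 lower to 77 and 434.

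With the replicate block 206 genes had such a p-value, against 574 without it, and no library correlated best with the one of its own number. The count was 1269 of 27416 genes without the filter, 2698 without Sham replicate 1 and 988 without OVX replicate 1. It was 360, 286, 233 and 411 without Sham replicate 2, Sham replicate 3, OVX replicate 2 and OVX replicate 3. The interval of Fcgr4, with 68 to 372 reads per library, ran from -2.07 to 0.61 and included both no change and a fall of 1.6-fold. So did those of Fcrl1, Fcgr1, Fcgr3, Fcer1g and Fcer2a, the last with 3222 to 12290 reads per library.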
